A study of Homo sapiens with 6 samples.

Results

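The expression of 10 genes of the integrated stress response, out of 20030 genes measured, was followed in renal cancer cells with and without YB1 knockdown. They are a fixed list of names: the transcription factor ATF4 itself, the factors DDIT3 (CHOP) and ATF3, the pseudokinase TRIB3, the amino acid enzymes PHGDH, PSAT1 and ASNS, the glutathione-degrading enzyme CHAC1, and SESN2 and DDIT4 (REDD1), which restrain the growth-promoting kinase complex mTORC1. The list is defined by gene symbol, with no threshold on a measured value. The cells were 786-O, an established human line that came from a clear cell renal carcinoma (ccRCC), at passages 16 to 18. The control group (vector, 3 libraries) carried a scrambled short hairpin RNA and the knockdown group (shYB1, 3 libraries) one against YB1, both delivered stably by lentivirus and selected with puromycin, so viral transduction and puromycin were common to both groups. The series text speaks of several independent hairpins against YB1, whereas the labels give a single shYB1 group. Nothing states that the 3 libraries of a group came from separate cultures, and the p-values then measure only the spread between these libraries, which may be technical.

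The integrated stress response begins when a kinase (PERK, GCN2, PKR or HRI) phosphorylates the translation initiation factor eIF2. General translation then falls, while ATF4 mRNA, whose upstream open reading frames otherwise keep ribosomes from its coding sequence, is translated more. ATF4 binds DNA as a dimer with C/EBP proteins at C/EBP-ATF response elements (CARE) and switches on amino acid synthesis, amino acid transport, tRNA charging and, when stress lasts, CHOP and cell death genes. ATF4 is therefore set largely at the protein level, which mRNA sequencing does not measure. YB1, encoded by YBX1, is a cold shock domain protein that binds RNA and is named after the Y-box, a promoter element around the letters CCAAT.

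The promoters of these genes were read for both elements, because the knockdown lowers the protein named after the one, while the ATF4 response acts through the other. The window ran from 250 bases before to 50 bases after each annotated transcript start, with 10 of 10 genes matched to 16 RefSeq windows on GRCh38.p14. The CARE letters searched were TGATGNAA (TTNCATCA on the other strand), which 4.46% of 27305 genes hold in at least 1 window, and 3 of the 10 genes held them, ASNS, ATF3 and CHAC1. In the following stretches, written 5′ to 3′ on the gene's strand, capitals mark the CARE. These lie at chr7:97872453-97872492 (−), chr1:212565200-212565239 (+) and chr15:40953246-40953285 (+).
ASNS: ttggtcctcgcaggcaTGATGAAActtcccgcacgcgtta
ATF3: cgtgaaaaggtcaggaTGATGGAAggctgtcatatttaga
CHAC1: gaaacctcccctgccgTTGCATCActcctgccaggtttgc

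Counted from the start base as 0, the match began at −68 in ASNS, at −191 in ATF3 and at −209 in CHAC1. Among the genes of the tRNA charging list described further on, 7 of 11 matched genes held the CARE, and so did CEBPG, which encodes a dimer partner of ATF4. These are shown because their letters are nearly the same as in CHAC1 and because all 8 genes were measured. They lie at chr16:70289670-70289709 (−), chr9:92293698-92293726 (−), chr12:57488060-57488075 (+), chr7:30594829-30594868 (+), chr11:3057414-3057429 (−), chr18:57621811-57621826 (−), chr5:33440963-33440978 (+) and chr19:33374055-33374094 (+), in the order printed.
AARS1: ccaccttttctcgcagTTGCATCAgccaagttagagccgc
IARS1: ccgcattttcagcgcgTTGCATCAcctcc
MARS1: ccggTTGCATCAgcga
GARS1: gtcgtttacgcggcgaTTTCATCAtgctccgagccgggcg
CARS1: gcggTTGCATCAgatt
NARS1: tctcTGATGCAAcgcc
TARS1: tcgaTTGCATCAgctg
CEBPG: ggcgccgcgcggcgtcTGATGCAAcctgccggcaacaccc

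The Y-box letters CCAAT, read on both strands, were found in 7 of the 10 genes and in 39.7% of all 27305 genes. PSAT1 held 3 of them in the stretch chr9:78297004-78297085 (+), with the Y-box letters in capitals.
PSAT1: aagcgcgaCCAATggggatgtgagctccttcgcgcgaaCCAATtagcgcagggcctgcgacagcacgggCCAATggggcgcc

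CCAAT is also the element of the NF-Y factor, and a match of either motif is a run of letters, not a measured binding site. ATF4 and TRIB3 held neither motif in their windows.

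**Figure D1:**
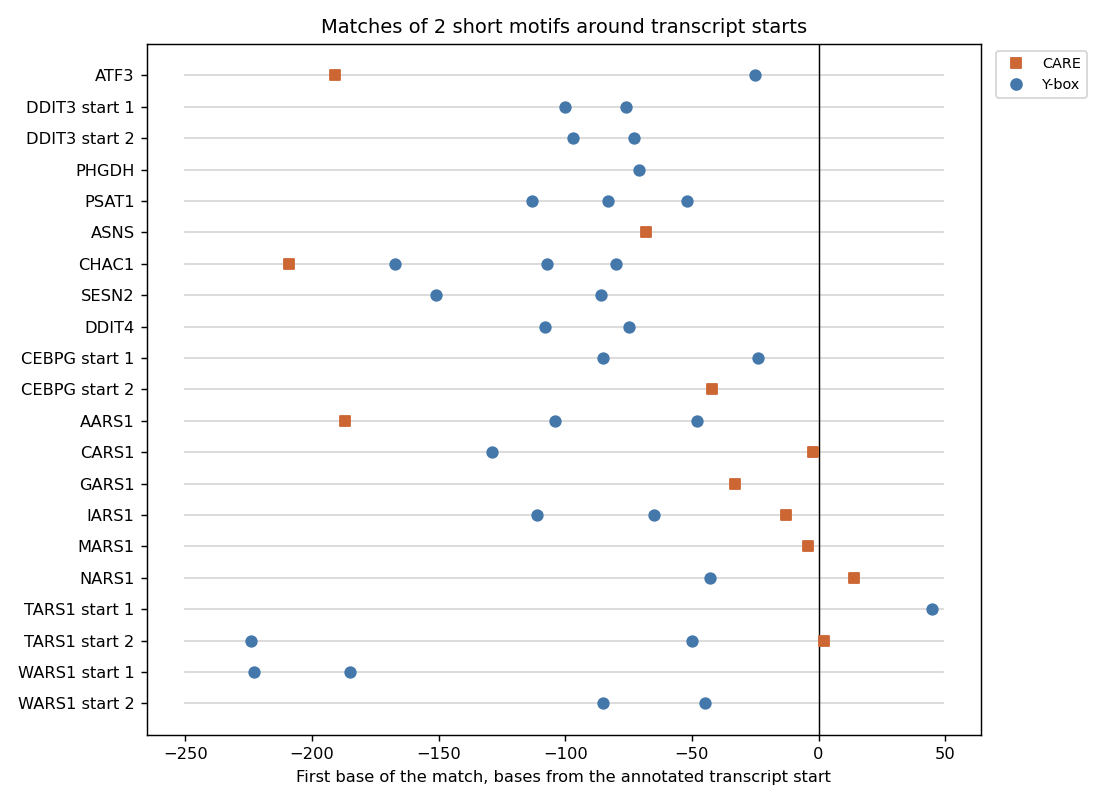
Positions of CARE (squares) and Y-box (circles) matches on either strand, as the first base of the match in bases from the annotated transcript start (vertical line at 0), with 1 row for each window that holds a match. ASNS, ATF3 and CHAC1 hold a CARE at −68, −191 and −209, and the 3 Y-boxes of PSAT1 begin at −113, −83 and −52.

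Expression is given in FPKM, fragments mapped to a gene relative to its transcript length and to the library's total, a scale that corrects for transcript length and so allows levels of different genes to be set side by side. The FPKM of a library added up to between 282736 and 295887, and counts were not used here, so the depth is known only as a ratio between libraries, from 0.981 to 1.10 times that of shYB1 replicate 1. YBX1, the targeted gene, was at 367, 373 and 378 FPKM in vector and at 167, 166 and 173 in the shYB1 libraries. Of the 50-base words of its transcripts, 30.75% also occur in other annotated genes, YBX1P1 among them. Reads of YBX1 could thus in part have been assigned to those or left out. All 6 markers of renal carcinoma cells were expressed, with sums of 1824 to 1914 FPKM in the vector and 1887 to 1923 in the shYB1 libraries. Most of each sum was VIM, at 1366 to 1444 FPKM in the vector and 1416 to 1450 in the shYB1 libraries. PAX8 was at 76.8 to 77.3 and 75.6 to 78.7 FPKM, and PAX2 at 16.5 to 17.5 and 18.1 to 19.5 FPKM. All 5 markers of leukocytes, endothelium and fibroblasts stayed under 1 FPKM, with sums of 0.618 to 0.764 in the vector and 0.581 to 0.644 in the shYB1 libraries, and CDH5 was listed at 0 throughout.

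In the knockdown cells the 10 genes went in both directions. ATF3, PSAT1, ASNS and TRIB3 were higher in shYB1 than in vector cells, by 1.47, 1.41, 1.16 and 1.13 times in the ratio of mean FPKM. ATF4 and DDIT4 were slightly lower, at 0.927 and 0.916 times the vector mean. DDIT3, CHAC1 and SESN2 did not pass the test, and PHGDH was too low to be tested. In RNA from whole cultures, a change in every cell and a change in some of the cells cannot be told apart. The test was limma on log2(FPKM + 0.1) over the 10439 genes whose mean reached 1 FPKM, two-sided, and a gene was called at a Benjamini-Hochberg adjusted p under 0.05. Of the 9 genes tested, 4 were called higher, against 18.7% of all genes tested, and 2 lower, against 6.93%. The shares called depend on level: with a filter at a mean of 5 FPKM, 1701 of 6547 genes were called higher and 624 lower. Neither these 9 genes nor the lists further on were matched for level. The vector and shYB1 values did not overlap in 7 of the 9, a separation seen in 42.6% of all genes tested. The median log2 fold change of the 9 was 0.18, beside 0.06 over all genes tested. Rescaling the libraries by median-of-ratios size factors brought the median of all genes to 0.00 and gave 4 higher and 3 lower calls among the 9, against backgrounds of 11.2% and 12.2%. That rescaling also changed the balance of the calls over all genes, of which 73.0% were higher in the deposited scale and 47.9% after it. All changes were small: none of the 9 genes met the study's selection criteria, which 0.22% of all genes tested met. The criteria were read here as an unadjusted limma p under 0.05 with at least a 2-fold change. An unadjusted limma p under 0.05 alone was reached by 7 of the 9. Its share over all genes was not computed, so this count has no background. The same holds for the unadjusted counts of the lists further on.

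**Figure D2:**
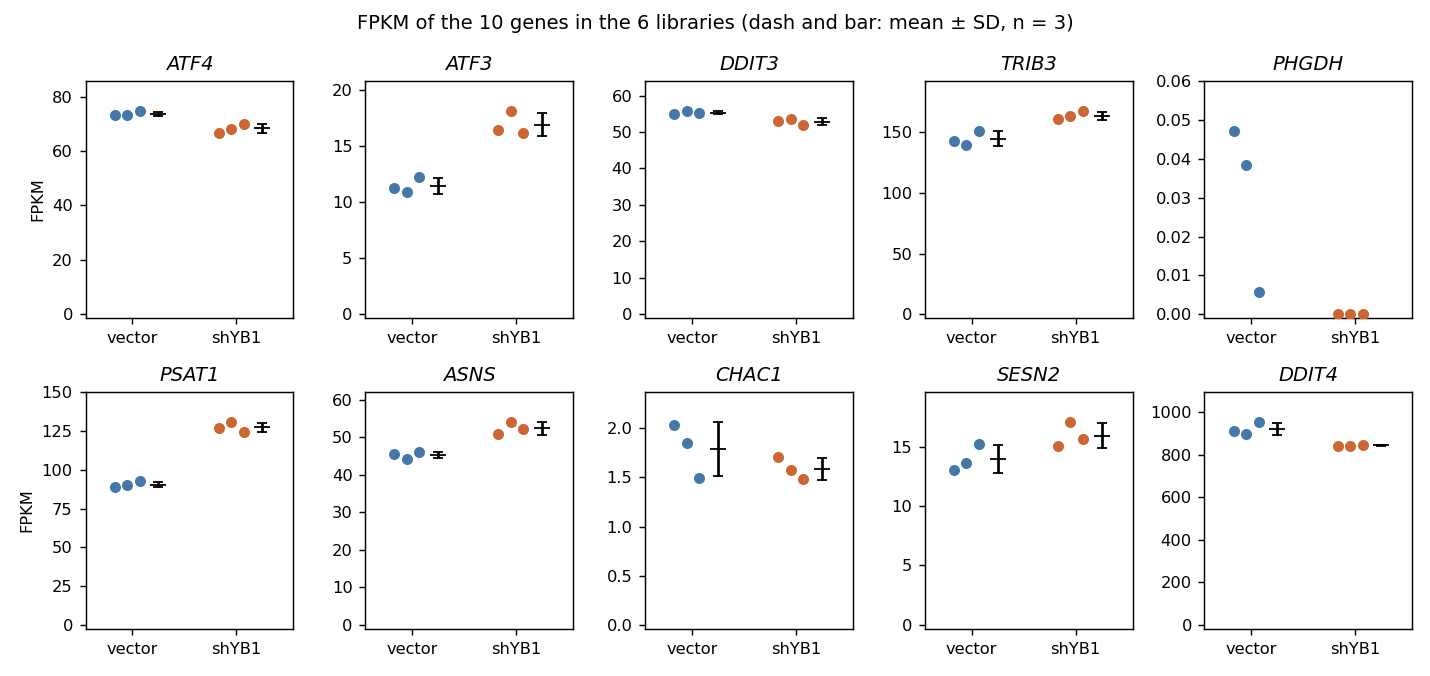
FPKM of each of the 10 genes in the 3 vector (blue) and 3 shYB1 (orange) libraries, each panel on its own linear axis from 0, with the dash and bar giving mean ± SD (n = 3) except for PHGDH. The groups lie apart in ATF3 and PSAT1 by more than their spread, and overlap in CHAC1 and SESN2.

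ATF4, the factor that gives the response its name, was at 73.3, 73.1 and 74.6 FPKM in vector and at 66.7, 68.3 and 70.0 FPKM in the shYB1 libraries. Every shYB1 library lay below every vector library, and the gap was small. The means were 73.7 ± 0.784 and 68.3 ± 1.65 FPKM (SD, n = 3), a log2 fold change of −0.11 (SE 0.032, 95% interval −0.18 to −0.04, limma adjusted p = 0.0322). This call was not firm, since leaving out any 1 library other than shYB1 replicate 3 ended it (limma adjusted p of 0.0568 to 0.118), whereas median-of-ratios scaling gave a smaller p (−0.17, limma adjusted p = 0.00398). Its level was higher than that of 94.4% of the genes tested. ATF4 lies at chr22:39520559-39522686 (+), and 17.95% of the 50-base words of its transcripts also occur in ATF4 pseudogenes, so its reads could in part have been assigned to those or left out.

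ATF3, a stress-induced factor of the same leucine zipper family that acts largely as a repressor, showed the biggest change of the 10. It was at 11.2, 10.9 and 12.3 FPKM in vector and at 16.5, 18.1 and 16.2 FPKM in the shYB1 libraries. The groups lay well apart, with means of 11.5 ± 0.708 and 16.9 ± 1.03 FPKM (SD, n = 3). On the log2 scale ATF3 rose by 0.56 (SE 0.059, 95% interval 0.42 to 0.69, limma adjusted p = 0.000148), a ratio of means of 1.47. The gene lies at chr1:212565407-212620777 (+), with the CARE shown above before its first annotated base.

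DDIT3 encodes CHOP, the factor that links lasting stress to cell death and is itself induced by ATF4. It was at 54.9, 55.6 and 55.3 FPKM in vector and at 52.9, 53.7 and 52.0 FPKM in the shYB1 libraries, with means of 55.3 ± 0.366 and 52.9 ± 0.842 FPKM (SD, n = 3). The groups did not overlap, yet the change was too small to pass the test, at a log2 fold change of −0.06 (SE 0.032, 95% interval −0.13 to 0.01, limma adjusted p = 0.160). The interval leaves no room for a rise like that of ATF3. After median-of-ratios scaling DDIT3 was called lower (−0.12, limma adjusted p = 0.0160). DDIT3 lies at chr12:57516588-57520517 (−) and overlaps exons of MARS and MBD6 on the other strand, and the sources used here do not give the strand setting of the libraries, so without strand its reads and theirs cannot be told apart.

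TRIB3, a pseudokinase induced by ATF4 and CHOP that in turn dampens ATF4 activity, was at 143, 139.8 and 151 FPKM in the vector libraries. In the shYB1 libraries it was at 161, 164 and 167 FPKM, above every vector library. The means were 145 ± 6.08 and 164 ± 3.30 FPKM (SD, n = 3), a log2 fold change of 0.18 (SE 0.037, 95% interval 0.10 to 0.26, limma adjusted p = 0.00589). TRIB3 lies at chr20:380760-397559 (+).

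PHGDH and PSAT1 catalyse consecutive steps of serine synthesis from a glycolytic intermediate. PHGDH, the first enzyme, was nearly silent in these cells, at 0.0471, 0.0385 and 0.00583 FPKM in vector and listed at 0 in all 3 shYB1 libraries. No fold is given for it, it fell below the level required for the test across genes, and the exact permutation test (two-sided) gave p = 0.1, the smallest that 3 libraries against 3 allow. PHGDH lies at chr1:119711934-119744215 (+).

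PSAT1, the enzyme that follows PHGDH, was abundant, above 96.6% of the genes tested. It was at 88.9, 90.0 and 92.7 FPKM in vector and at 127, 131 and 125 FPKM in the shYB1 libraries. The lowest shYB1 library stood far above the highest vector library. The means were 90.5 ± 1.92 and 127 ± 3.16 FPKM (SD, n = 3), a ratio of 1.41 and a log2 fold change of 0.49 (SE 0.033, 95% interval 0.42 to 0.57, limma adjusted p = 7.17e-06). PSAT1 lies at chr9:78297125-78330093 (+), and 4.62% of its 50-base words are shared with its pseudogenes.

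ASNS makes asparagine from aspartate and is the classic gene through which the CARE was studied. It was at 45.6, 44.3 and 45.9 FPKM in vector and at 50.8, 54.0 and 52.2 FPKM in the shYB1 libraries. The groups did not overlap, with means of 45.3 ± 0.875 and 52.3 ± 1.63 FPKM (SD, n = 3). On the log2 scale ASNS rose by 0.21 (SE 0.036, 95% interval 0.13 to 0.29, limma adjusted p = 0.00259). ASNS lies at chr7:97851677-97928441 (−), and 40.6% of its 50-base words are shared with other annotated transcripts, mostly AC079781.5, which overlaps it on the same strand, and ASNSP1.

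CHAC1 degrades glutathione and is among the genes that react most sharply to ATF4 in many cell types. Here it was low, above only 8.33% of the genes tested, at 2.03, 1.85 and 1.49 FPKM in vector and at 1.71, 1.57 and 1.48 FPKM in the shYB1 libraries. The groups overlapped and the vector libraries spread widely, with means of 1.79 ± 0.274 and 1.59 ± 0.112 FPKM (SD, n = 3). Their difference was −0.15 on the log2 scale with a wide interval of −0.41 to 0.11 (SE 0.117, limma adjusted p = 0.361), which holds no change as well as a fall of more than this size. CHAC1 lies at chr15:40953471-40956512 (+).

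SESN2 senses leucine for the mTORC1 pathway. It was at 13.0, 13.6 and 15.3 FPKM in vector and at 15.0, 17.1 and 15.7 FPKM in the shYB1 libraries. The highest vector library, replicate 3, lay above the lowest shYB1 library, and the means were 13.95 ± 1.17 and 15.9 ± 1.03 FPKM (SD, n = 3). The difference was 0.19 on the log2 scale (SE 0.067, 95% interval 0.04 to 0.34) with a limma adjusted p of 0.0610, and without vector replicate 3 it passed (limma adjusted p = 0.0144). SESN2 lies at chr1:28259518-28282491 (+).

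DDIT4 (REDD1) restrains mTORC1 under stress and low oxygen, and its mRNA was the most abundant of the 10, above 99.6% of the genes tested. It was at 912, 899 and 954 FPKM in vector and at 843, 843 and 848 FPKM in the shYB1 libraries. The shYB1 libraries were close together and all below the vector libraries. The means were 922 ± 28.7 and 844.5 ± 3.06 FPKM (SD, n = 3), a log2 fold change of −0.13 (SE 0.032, 95% interval −0.20 to −0.06, limma adjusted p = 0.0156). After quantile normalization the difference was −0.02 (limma adjusted p = 0.531), and the call was also lost without shYB1 replicate 1 (limma adjusted p = 0.0552) and without shYB1 replicate 2 (limma adjusted p = 0.0638). DDIT4 lies at chr10:72273924-72276036 (+), where DDIT4-AS1 overlaps it on the other strand.

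**Figure D3:**
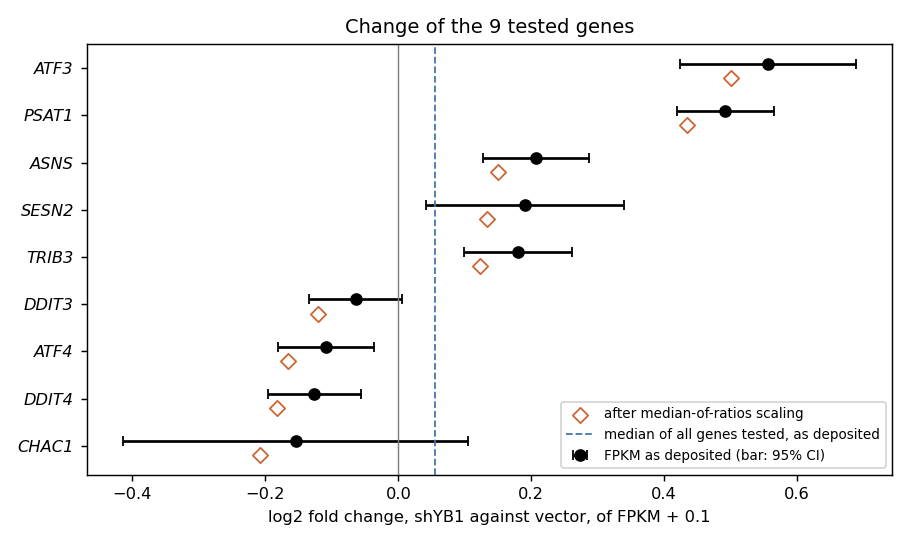
Log2 fold change of the 9 tested genes, shYB1 against vector, with bars for the 95% interval of the limma fit of the deposited values and diamonds for the value after median-of-ratios scaling. ATF3 (0.56) and PSAT1 (0.49) stand apart from the other 7, whose changes lie between −0.15 and 0.21.

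Levels were also read relative to ATF4 within each library, which cancels the library's scale. These ratios restate the changes above and are no further evidence: a gene that was higher, divided by one that was lower, gives a higher ratio. PSAT1 stood at 1.23 ± 0.0151 times ATF4 in vector and at 1.86 ± 0.0750 times in shYB1 libraries (SD, n = 3). TRIB3 was at 1.95, 1.91 and 2.03 times ATF4 in vector and at 2.41, 2.40 and 2.39 times in shYB1 libraries. DDIT4 was at 12.5 ± 0.256 and 12.4 ± 0.262 times ATF4 (SD, n = 3), and its ratios overlapped between the groups.

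The regulators upstream of ATF4 were described next. This list and those further on were chosen with earlier results of these data known. Their shares beside those of all genes are therefore a description and no independent support. Besides GCN1, IMPACT and DNAJC3, the list held genes for the kinases, eIF2, its exchange factor eIF2B and the phosphatase subunits, 17 genes in all. Of these, 9 were higher, 0 lower and 8 not called by limma (9 higher and 0 lower at an unadjusted p under 0.05), with a median log2 fold change of 0.17. The 9 are 52.9% of the list, beside 18.7% higher over all genes tested. After median-of-ratios scaling 7 were higher, 41.2% beside 11.2%. PPP1R15A (GADD34), the phosphatase subunit that ends the response and is itself induced by ATF4, was at 62.6, 64.3 and 68.0 FPKM in the vector and at 77.0, 75.4 and 76.0 FPKM in the shYB1 libraries (log2 fold change 0.23, limma adjusted p = 0.00176). The eIF2B subunits EIF2B3 and EIF2B1 were higher by 0.31 and 0.25 on the log2 scale (limma adjusted p = 0.0141 and 0.00371).

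The kinases differed in their values. EIF2AK2, which encodes the double-stranded RNA sensor PKR, was at 6.13, 6.19 and 6.06 FPKM in the vector and at 7.73, 7.26 and 7.27 FPKM in the shYB1 libraries (log2 fold change 0.27, limma adjusted p = 0.00445). EIF2AK4 (GCN2, the sensor of uncharged tRNA) was higher by 0.19 (limma adjusted p = 0.0358). That call held in only 8 of 15 alternatives and was lost, among others, after median-of-ratios scaling (0.14, limma adjusted p = 0.105). EIF2AK3 (PERK, the sensor in the endoplasmic reticulum) was at 4.38, 4.199 and 3.755 FPKM against 4.08, 4.01 and 3.72, and its groups overlapped (−0.06, limma adjusted p = 0.588). EIF2AK1 (HRI), the most abundant of these kinases, was at 25.6, 26.6 and 27.6 FPKM against 26.4, 27.0 and 26.1. Its groups overlapped as well (−0.005, limma adjusted p = 0.940).

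Among 11 genes for dimer partners and for the degradation of ATF4, 10 were tested, of which 1 was higher, 4 lower and 5 not called. The higher share of 10% lies below the 18.7% of all genes tested, and the lower share of 40% stands beside 6.93%. CEBPG, the partner whose CARE is printed above, was the one that rose, from 9.52, 10.6 and 9.81 FPKM in the vector to 14.0, 13.4 and 12.6 FPKM in the shYB1 libraries (log2 fold change 0.42, limma adjusted p = 0.000755). CEBPD fell from 755, 747 and 807 FPKM to 503, 492 and 564 FPKM (−0.57, limma adjusted p = 9.86e-05). CEBPB was lower as well (−0.23, limma adjusted p = 0.0372), but 1 shYB1 library, replicate 3, reached 141 FPKM and overlapped the vector range of 139.7 to 155. That call was lost without vector replicate 1 or 3 or without shYB1 replicate 1 or 2 (limma adjusted p of 0.106 to 0.116). JUN and EGLN3, a prolyl hydroxylase that promotes the turnover of ATF4 protein, were the remaining lower genes, at −0.18 (limma adjusted p = 0.00159) and −0.21 (limma adjusted p = 0.00595).

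Further targets of ATF4 were taken as 4 lists of 51 genes together. Of the 48 tested, 25 were higher, 3 lower and 20 not called, with a median log2 fold change of 0.18 beside 0.06 over all genes tested. The higher share was 52.1% beside 18.7% over all genes tested, and the lower share of 6.25% was near the background of 6.93%. After median-of-ratios scaling 22 were higher (45.8% beside 11.2%) and 6 lower (12.5%, near the background of 12.2%), with a median of 0.12 beside 0.00.

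The tRNA charging list held 13 genes. Of these, 12 aminoacyl-tRNA synthetases and the tRNA exporter XPOT, 12 were higher, 0 lower and 1 was not called by limma (12 and 0 at an unadjusted p under 0.05), with 10 higher after median-of-ratios scaling. The higher shares were 92.3% and 76.9%, beside 18.7% and 11.2% over all genes tested. WARS, which charges tryptophan, rose from 24.7, 26.2 and 25.9 FPKM to 35.9, 35.7 and 35.4 FPKM (0.48, limma adjusted p = 2.08e-05). MARS (methionine) and IARS (isoleucine) followed at 0.40 and 0.37 (limma adjusted p = 7.87e-05 for both), the reads of MARS being subject to the overlap with DDIT3 named above. CARS, the exception, was at 9.20, 8.17 and 9.81 FPKM against 8.81, 10.3 and 10.1, and its groups overlapped (0.10, limma adjusted p = 0.374) although its promoter holds the same TTGCATCA as MARS1 and IARS1. WARS1, under its current symbol, held no CARE in its windows.

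In the amino acid synthesis list 6 of 11 genes were higher, 1 lower and 4 not called, shares of 54.5% beside 18.7% and of 9.09% beside 6.93% over all genes tested. PSPH, which completes serine synthesis after PSAT1, rose from 18.4, 17.3 and 17.4 FPKM to 22.2, 22.2 and 23.2 FPKM (0.35, limma adjusted p = 0.000331). MTHFD2, the mitochondrial folate enzyme that uses one-carbon units from serine, rose by 0.31 (limma adjusted p = 0.000194), and GOT1, which makes aspartate, by 0.25 (limma adjusted p = 0.00181). Both enzymes that follow PHGDH in this route, PSAT1 and PSPH, thus rose, and PHGDH itself was near 0 FPKM in both groups. The lower gene was ALDH18A1 of proline synthesis (−0.13, limma adjusted p = 0.0361), named here after its value was seen, and its call held in 9 of 15 alternatives (limma adjusted p up to 0.113).

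Of the 8 amino acid transporters 7 were tested, of which 2 were higher, 0 lower and 5 not called by limma (5 higher and 0 lower at an unadjusted p under 0.05). The higher share of 28.6% was not far from the 18.7% of all genes tested, and after median-of-ratios scaling it was 14.3% beside 11.2%. SLC7A5, the large neutral amino acid carrier, was higher by 0.26 (limma adjusted p = 0.000618). SLC1A5, the glutamine carrier, was higher by 0.15 (limma adjusted p = 0.0177) and not called after median-of-ratios scaling (0.09, limma adjusted p = 0.1). SLC7A11, the cystine carrier that supplies glutathione synthesis, was at 7.43, 7.68 and 8.08 FPKM against 9.45, 9.03 and 8.10 and missed the threshold (0.19, limma adjusted p = 0.0521).

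The 19 other stress targets gave 5 higher, 2 lower and 10 not called of 17 tested. Shares of 29.4% higher and 11.8% lower stand beside 18.7% and 6.93% over all genes tested, and after median-of-ratios scaling 5 were higher and 4 lower. STC2, a secreted glycoprotein, rose from 16.7, 17.0 and 16.0 FPKM to 23.4, 24.8 and 24.8 FPKM (0.55, limma adjusted p = 2.31e-05), close in size to that of ATF3. GADD45A (0.29, limma adjusted p = 0.00118) and the mitochondrial protease LONP1 (0.29, limma adjusted p = 0.00043) rose as well. The 2 lower genes were VLDLR (−0.25, limma adjusted p = 0.00305) and VEGFA (−0.10, limma adjusted p = 0.0252). The call of VLDLR held in 15 of 15 alternatives and that of VEGFA in 9 of 15.

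**Figure D4:**
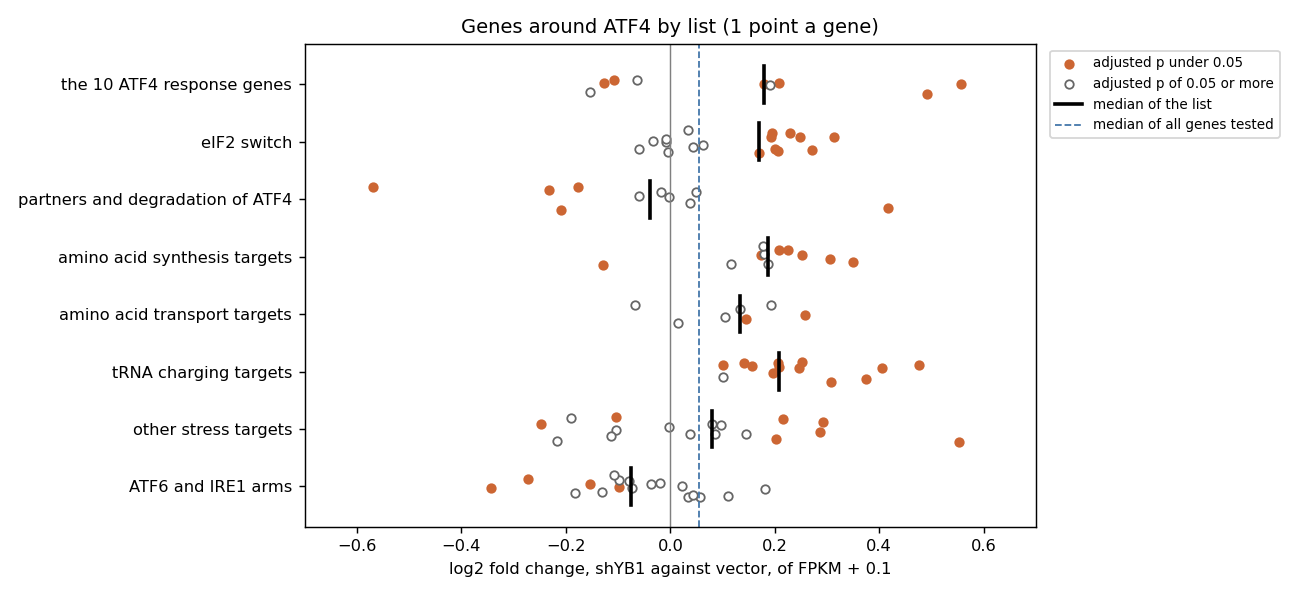
Log2 fold change (shYB1 against vector) of each tested gene in the 10 ATF4 response genes and in 7 lists around ATF4, filled where called by limma at an adjusted p under 0.05, with the median of each list as a black bar and the median of all genes tested as a dashed line. Filled points lie to the right in the tRNA charging list (12 of 13) and only to the left in the ATF6 and IRE1 list (4 of 18).

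The other 2 arms of the unfolded protein response, run by ATF6 and by IRE1 with its product XBP1, raise chaperones and degradation factors of the endoplasmic reticulum. Of their 18 genes, 0 were higher, 4 lower and 14 not called by limma (1 higher and 6 lower at an unadjusted p under 0.05), with a median log2 fold change of −0.08. The lower share was 22.2% beside 6.93% over all genes tested. After median-of-ratios scaling 7 were lower, 38.9% beside 12.2%. HERPUD1 fell from 57.2, 55.7 and 55.2 FPKM to 42.8, 43.9 and 45.7 FPKM (−0.34, limma adjusted p = 0.000144), and XBP1 from 84.0, 84.1 and 85.05 FPKM to 69.2, 71.2 and 69.0 FPKM (−0.27, limma adjusted p = 0.000194). HSPA5 (BiP), the main chaperone of the compartment, was lower too (−0.15, limma adjusted p = 0.00595), while DNAJB9, a target of XBP1, did not pass (−0.08, limma adjusted p = 0.347). The difference between this list and the ATF4 targets was not tested. Of these 18 genes, 16 held the letters CCAAT, which are also the element of NF-Y, 88.9% beside 39.7% of all 27305 genes. The CARE was held by 1, HERPUD1, a share of 5.56% beside 4.46%. A match does not tell which factor, if any, binds, and any link between these letters and the lower values was not tested.

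Of the genes in these lists, the 5 whose log2 values followed ATF4 most closely over the 6 libraries were CEBPD (Pearson r 0.975), TRIB1 (0.962), HERPUD1 (0.958), HSPA5 (0.932) and JUN (0.931). All of them had lower means in the shYB1 libraries, and since the 6 libraries fall into 2 groups, such an r mostly restates the difference between the groups. None of the 5 is one of the amino acid or tRNA genes, which is no further result. The called genes of those lists, apart from ALDH18A1, were higher while ATF4 was lower.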

How the data were processed

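RNA of 3 vector and 3 shYB1 libraries of 786-O cells was sequenced. The authors deposited FPKM per gene for each library. The submitters' processing notes name Trimmomatic, HISAT2, Cufflinks, HTSeq and DESeq with the build GRCh38, without versions or roles. Strandedness and filters are not given in the sources used here. The file holds no counts, so depth is known only in relative terms, and no interval that needs it was computed. Functional annotations in the file were not used.

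The deposited FPKM were taken as log2(FPKM + 0.1), keeping the 10439 of 20030 genes whose mean over the 6 libraries reached 1 FPKM. The groups were fitted in limma (version 3.58.1, under R 4.3.3) with lmFit and eBayes (trend, robust), and two-sided p-values were adjusted by Benjamini-Hochberg over every tested gene. The step was tested on simulated data. Standard errors and 95% intervals are those of this fit, and fold changes on this scale understate the change of low genes. An exact permutation test was used for single genes. Alternatives were pseudocounts of 1 and 0.01, no filter or a filter at 5 FPKM, median-of-ratios, common-total (TPM) and quantile scaling, a prior without trend, a replicate block and each library left out.

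The genes and lists were chosen with earlier results of these data known. From each list the 3 called genes with the largest absolute change were named, with EIF2AK3, EIF2AK4, PPP1R15A, CEBPB, CEBPG, SLC7A11, HSPA5 and DNAJB9 whatever their values, and the 5 genes most like ATF4 by Pearson r over the 6 libraries. CARS, EGLN3, ALDH18A1, EIF2AK1, VLDLR, VEGFA and CHAC2 were added after their values were seen. Promoter windows and gene positions are from RefSeq (GRCh38.p14), and shared 50-base words and exon overlaps from GENCODE transcripts. Other steps ran in Python 3.11.15, using pandas 2.3.3, NumPy 2.4.6, SciPy 1.17.1 and, for plots, matplotlib 3.10.9.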

Additional observations from a re-analysis of the deposited data

How the results depend on the processing

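Of the 15 alternatives, none turned the direction of any of 37 genes named by rule. Of their 551 values, 513 kept their direction and side of the threshold, 29 lost the call and 9 gained it. Genes added after their values were seen are not among the 37, and of these EIF2AK1 ranged from −0.06 to 0.02. TRIB1 and JUN, named for their Pearson r with ATF4, are not among the 37 either. Over the alternatives TRIB1 ranged from −0.14 to −0.07 and JUN from −0.23 to −0.14. Calls of lower genes were the least stable. With a variance prior without trend, 0 of the 10 ATF4 response genes and 1 of the ATF4 targets were lower, instead of 2 and 3. After median-of-ratios scaling 6 ATF4 targets and 7 genes of the ATF6 and IRE1 list were lower, instead of 3 and 4. A filter at 5 FPKM gave 1 higher gene in the ATF6 and IRE1 list instead of 0, and fewer genes were tested there. Leaving out 1 library at a time gave 0 to 2 lower genes among the 10 (0 without shYB1 replicate 1 or 2), 1 to 3 lower ATF4 targets (1 without vector replicate 2 or shYB1 replicate 1 or 3) and 0 to 1 higher genes of the ATF6 and IRE1 list (1 without shYB1 replicate 2). Calls of ATF3, PSAT1, ASNS and TRIB3 passed in 15 of 15 alternatives. The causes of the other shifts were not tested.

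The replicate numbers did not pair the libraries: deviations of same-numbered libraries correlated at −0.169, −0.059 and −0.00824, and the labels mark no shared batch. A replicate block gave 5 higher genes among the 10, SESN2 being the added one (limma adjusted p = 0.0376), and 2 lower, and over all genes 2074 higher and 760 lower instead of 1956 and 723. With 3 libraries a group and unknown depth, PHGDH lies too low to judge, and the low level and wide interval of CHAC1 leave its direction open. DDIT4L and CHAC2, described below, lie lower than CHAC1, and the limit of level holds for them too.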

Other observations

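Relatives of the ATF4 response genes had values of their own. DDIT4L, a paralogue of DDIT4 that also restrains mTORC1, was at 2.23, 2.13 and 2.06 FPKM in the vector and at 1.35, 1.08 and 0.773 FPKM in the shYB1 libraries (log2 fold change −0.97, SE 0.161, limma adjusted p = 0.0025). Its level was above only 7.28% of the genes tested. The size of its change depended on the pseudocount, at −0.61 with 1 and −1.03 with 0.01. TRIB2, a paralogue of TRIB3 without a known place in this response, was at 11.7, 11.8 and 11.5 FPKM against 8.77, 8.59 and 8.79 FPKM (−0.42, limma adjusted p = 0.000152), opposite in sign to TRIB3 in these libraries. CHAC2, the paralogue of CHAC1, stood at 0.698, 0.741 and 0.773 FPKM in the vector and at 1.32, 1.21 and 1.21 FPKM in the shYB1 libraries without overlap, and fell below the mean of 1 FPKM required for the test. It was singled out after its values were seen.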
